A study of Homo sapiens with 6 samples.

Results

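The genes described are 10 outputs and feedback brakes of the ERK pathway: the phosphatase genes DUSP4, DUSP5 and DUSP6, the Sprouty genes SPRY1, SPRY2 and SPRY4, the SPRED genes SPRED1 and SPRED2, and the ETS factor genes ETV4 and ETV5. They were chosen by name from what is known of the pathway, at a time when earlier results of these data were known. All 10 were found by symbol among the 60617 gene identifiers of the count files. RNA was sequenced from 6 tumors grown as xenografts of the human melanoma cell line WM983-B. Of these, 3 came from the group given anle138b systemically, a diphenyl-pyrazole that binds oligomers of α-synuclein, and 3 came from the untreated group. Dose and duration are not given in the sources used here, and no vehicle is named for the untreated group. All tumors stem from 1 cell line, so the groups model 1 melanoma. The sample titles follow 2 naming styles, each holding both groups: a 4-library set with anle138b replicates 1 and 2 and untreated replicates 1 and 2, and a 2-library set with replicate 3 of each group. Whether each tumor had a host of its own is not stated, and the spread behind every p-value is that between libraries, which may be technical.

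In the Ras-ERK pathway, activated receptors or mutant kinases drive the kinase ERK, which in turn switches on genes that restrain it. Dual-specificity phosphatases remove phosphate from ERK: DUSP6 acts mainly in the cytoplasm, DUSP5 acts in the nucleus, and DUSP4 acts in the nucleus on ERK and on related kinases. Sprouty proteins act between receptors and RAF, and SPRED proteins bring neurofibromin to the membrane, where it inactivates Ras. ETV4 and ETV5 are ETS transcription factors of the PEA3 group, and ERK activity relieves their genes from the repressor Capicua. In melanoma, where this pathway is commonly mutated, transcripts of these genes are widely used as a readout of ERK activity.

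Anle138b-treated tumors did not show 1 common direction for these 10 genes. SPRY2, DUSP4 and SPRED1 had higher levels than in untreated tumors, with log2 fold changes of 0.46, 0.43 and 0.39, while SPRY1, DUSP6 and SPRY4 had lower levels, with -0.57, -0.33 and -0.22. DUSP5, ETV4, ETV5 and SPRED2 had log2 fold changes between -0.19 and 0.18. By edgeR's quasi-likelihood test with Benjamini-Hochberg adjustment over 20423 genes, 0 of the 10 passed a threshold of 0.05, against 1.05% of all genes tested (0.656% raised) and 1.37% of the 9439 genes at least as abundant as the lowest of the 10. At an unadjusted p under 0.05 there were 6 of 10, 3 higher and 3 lower, against 8.49% of all genes (3.43% higher and 5.06% lower) and 8.69% of those 9439. That count of 6 was 3 without anle138b replicate 3, against 1589 of 21059 genes, and 3 without untreated replicate 3, against 1722 of 20873. With naming set in the fit, both take the treatment difference from the 4-library set and are not separate checks. It was 5 without anle138b replicate 1 or 2, against 1517 of 22119 and 2251 of 21896 genes. Without untreated replicate 1 or 2 it was also 5, against 1649 of 21441 and 1772 of 22148. DESeq2 called 3 of the 10 (SPRY2, DUSP4 and SPRED1, all higher), against 2.02% of all genes, and limma called 0, against 1.17%. Other settings of edgeR called 1 of the 10 with library size alone (against 1.39% of all genes), 4 with no filter on low counts (against 1.62%) and 0 among genes with at least 50 counts in 3 libraries (against 1.4%). With DESeq2 size factors, upper-quartile scaling or the 4-library set alone, edgeR called 0, against 1.05%, 1.35% and 0.457%. Leaving out anle138b replicate 1, 2 or 3 called 0 of the 10, against 0.647%, 1.79% and 0.423% of all genes. Leaving out untreated replicate 1, 2 or 3 also called 0, against 0.634%, 0.682% and 0.556%. The median log2 fold change was -0.07 over the 10 genes and -0.01 over all genes tested, and the median size without regard to sign was 0.28 and 0.13. All 10 passed the filter on low counts.

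The promoters of DUSP6 and of the Sprouty genes are shown because these feedback genes did not share 1 direction. SPRY2 was higher, while DUSP6, SPRY1 and SPRY4 were lower. Sequences are from RefSeq (GRCh38.p14), each from 250 bases before to 50 bases after an annotated start site, 5′ to 3′ on the gene's strand. Of the 10 genes, 6 had at least 1 such window, 10 windows in all; where a gene has several, the outermost is printed. Capitals mark matches to the motifs searched on both strands: CCGGAA (ETS core), TGAATGAA, TGAATGGA, TCAATGAA and TCAATGGA (octamers bound by Capicua), and TGACTCA (AP-1). No searched motif overlapped another.
DUSP6 (chr12:89352452-89352751, minus strand): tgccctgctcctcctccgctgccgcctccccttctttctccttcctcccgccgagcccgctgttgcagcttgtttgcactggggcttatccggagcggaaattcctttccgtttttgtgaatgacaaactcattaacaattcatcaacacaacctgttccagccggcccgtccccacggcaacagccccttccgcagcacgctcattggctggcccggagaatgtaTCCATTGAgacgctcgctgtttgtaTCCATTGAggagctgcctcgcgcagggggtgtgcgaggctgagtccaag
SPRY1 (chr4:123396545-123396844, plus strand): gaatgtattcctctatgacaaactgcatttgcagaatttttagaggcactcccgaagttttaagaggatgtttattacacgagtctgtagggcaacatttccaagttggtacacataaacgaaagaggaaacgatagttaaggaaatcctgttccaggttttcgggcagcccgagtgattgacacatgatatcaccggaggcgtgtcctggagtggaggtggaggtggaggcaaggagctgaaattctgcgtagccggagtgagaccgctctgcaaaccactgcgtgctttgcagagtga
SPRY2 (chr13:80341077-80341376, minus strand): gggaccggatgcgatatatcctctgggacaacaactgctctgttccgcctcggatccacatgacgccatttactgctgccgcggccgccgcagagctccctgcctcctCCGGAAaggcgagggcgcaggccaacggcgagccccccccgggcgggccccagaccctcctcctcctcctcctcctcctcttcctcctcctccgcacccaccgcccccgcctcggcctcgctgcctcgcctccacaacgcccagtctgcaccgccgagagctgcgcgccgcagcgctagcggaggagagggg
SPRY4 (chr5:142324198-142324497, minus strand): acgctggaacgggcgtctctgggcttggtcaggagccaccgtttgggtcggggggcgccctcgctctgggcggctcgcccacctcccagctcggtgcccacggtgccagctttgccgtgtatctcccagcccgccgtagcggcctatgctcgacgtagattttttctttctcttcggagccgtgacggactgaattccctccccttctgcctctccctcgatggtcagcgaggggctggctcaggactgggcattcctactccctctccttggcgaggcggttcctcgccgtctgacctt
DUSP6 held the reverse complement of TCAATGGA at 2 places; offsets are counted from 0 at the annotated start site, and these matches begin at -24 and 1. This octamer is in 0.51% of 35116 promoter windows, and at least 2 Capicua octamers of any spelling are in 0.327%. The printed SPRY2 window held CCGGAA at -142, as did the second SPRY1 window at -67, and 17.2% of all windows hold this core. A second SPRED2 window held TGACTCA at -6, against 4.95% of windows. The printed SPRY1 and SPRY4 windows, the SPRED1 window, the outermost SPRED2 window and the 2 inner SPRY2 windows held none of these letters. No window was given here for DUSP4, DUSP5, ETV4 and ETV5. These matches describe letters only, and binding was not measured.

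Gene counts summed to between 12400782 and 27599159 per library, with the highest totals in replicate 3 of each group. Each of the 10 genes had between 148 and 17754 counts in every library, far above the 3 counts taken as the floor of detection (0.106 to 0.24 CPM, counting error only). Levels below are TMM-scaled CPM, the count of a gene relative to the total of its library, and differences are log2 fold changes of anle138b over untreated tumors with naming set in the fit. Melanocyte lineage markers summed to 15433 to 18991 CPM in anle138b tumors and 14016 to 18255 CPM in untreated tumors (8 genes, all past the low-count filter, 0 called), a sum made up mostly of PMEL. SOX10 and MITF, which define the lineage, had log2 fold changes of 0.03 and -0.02. The 4 markers at an unadjusted p under 0.05 were the pigment genes TYRP1 at 1.42 (adjusted p = 0.0692), DCT at 0.42 and TYR at 0.27, and S100B at -0.46. TYRP1 had 492, 493 and 861 CPM in anle138b tumors, against 146, 104 and 704 CPM in untreated tumors, so most of its difference lay in the 4-library set. The part of lineage state in the differences of the 10 genes was not tested. In anle138b replicate 2, the muscle gene CKM was at 10.5 CPM and TNNT3 at 6.15 CPM, against at most 0.467 and 0.212 CPM in the other 5 libraries. Without that library the log2 fold changes were 0.44 for SPRY2, 0.46 for DUSP4, 0.40 for SPRED1, -0.54 for SPRY1, -0.30 for DUSP6 and -0.25 for SPRY4.

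DUSP4 (chromosome 8, 29333064 to 29350668 in GENCODE 29, GRCh38, minus strand) was the most abundant of the 3 phosphatases. It had 499, 477 and 628 CPM in anle138b tumors, against 337, 401 and 445 CPM in untreated tumors. The lowest anle138b tumor was above the highest untreated tumor. The log2 fold change was 0.43 ± 0.11 (SE, n = 3 per group; 95% interval 0.19 to 0.68), with adjusted p = 0.127 by edgeR. DESeq2 called the difference (adjusted p = 0.00903), and so did edgeR with library size alone as the scaling (adjusted p = 0.0402). Without the low-count filter edgeR also called it (adjusted p = 0.00102). It was not called by limma (adjusted p = 0.0726), nor by edgeR with upper-quartile scaling (0.0607) or DESeq2 size factors (0.0976). Nor did edgeR call it without the set term (adjusted p = 0.97) or in the 4-library set alone (0.389).

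DUSP6 (chromosome 12, 89347232 to 89353271, minus strand), the cytoplasmic ERK phosphatase, had 149, 131 and 159 CPM in anle138b tumors, against 152, 189.9 and 214 CPM in untreated tumors. The groups overlapped over all 6 tumors, but within each naming set every anle138b tumor was below every untreated one. Its log2 fold change was -0.33 ± 0.11 (95% interval -0.59 to -0.08; adjusted p = 0.335 by edgeR). An antisense gene, AC024909.2, covers 40.5% of the exon bases of DUSP6 on the opposite strand, and the libraries do not mark strand, so reads of the pair cannot be told apart there. AC024909.2 itself was given 105 to 180 counts in anle138b tumors and 130 to 167 in untreated tumors, against 1639 to 5034 for DUSP6.

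DUSP5 (chromosome 10, 110497838 to 110511544, plus strand), the nuclear ERK phosphatase, was low. It had 20.3, 20.1 and 11.9 CPM in anle138b tumors, against 19.9, 22.7 and 15.8 CPM in untreated tumors. The tumor of the 2-library set was the lowest in each group, and the groups overlapped. The log2 fold change was -0.19 ± 0.13 (95% interval -0.48 to 0.10; adjusted p = 0.825). Leaving out the 2-library tumor of the anle138b group gave -0.07, and leaving out that of the untreated group gave -0.06. With naming set in the fit, both nearly repeat the comparison in the 4-library set alone, which gave -0.07.

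**Figure D1:**
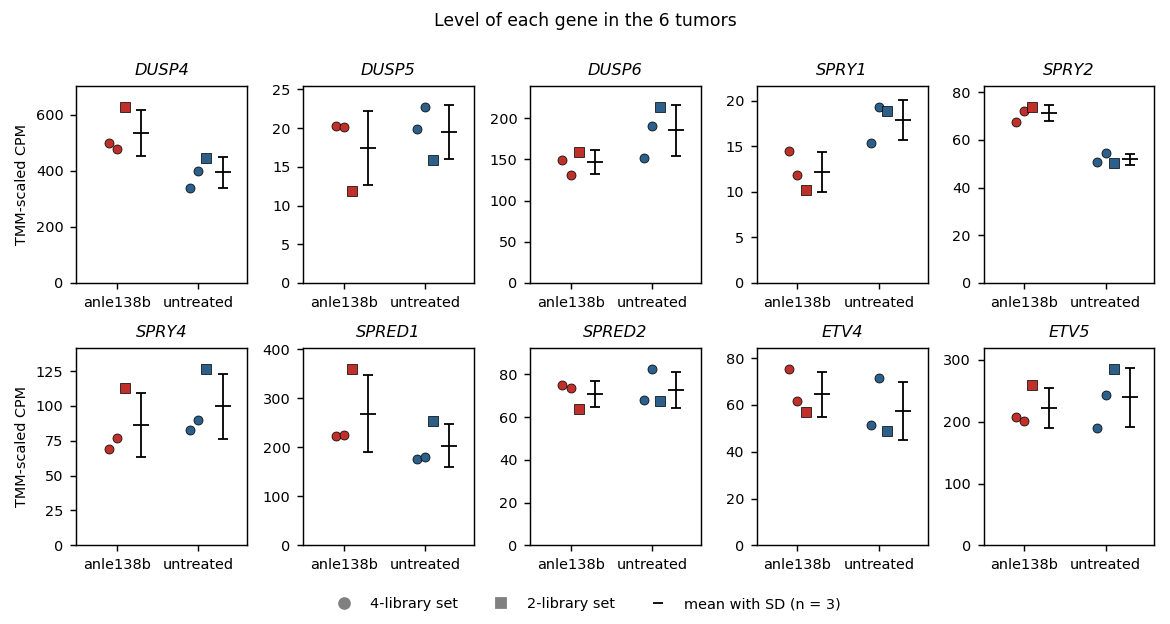
Level of each of the 10 genes in each tumor, in TMM-scaled CPM on linear axes from 0, with anle138b tumors left of untreated tumors; circles are the 4-library set, squares the 2-library set, and the bar beside the points is the mean with SD (n = 3). SPRY2 and DUSP4 are higher in every anle138b tumor than in any untreated tumor (SPRY2 67.4 CPM at the lowest against 54.6 CPM at the highest), SPRY1 is lower in every anle138b tumor (14.5 CPM at the highest against 15.4 CPM at the lowest), and the squares stand apart from the circles for SPRY4, SPRED1 and DUSP5.

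Among the Sprouty genes, SPRY2 (chromosome 13, 80335976 to 80340951, minus strand) had the smallest p of the 10. It had 67.4, 72.1 and 73.8 CPM in anle138b tumors, against 50.5, 54.6 and 50.4 CPM in untreated tumors. The groups were apart, and the spread within each was small (SD 3.30 and 2.38 CPM). The log2 fold change was 0.46 ± 0.10 (95% interval 0.24 to 0.67), with adjusted p = 0.0665 by edgeR, rank 271 of 20423, and adjusted p = 0.0123 by DESeq2.

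SPRY1 (chromosome 4, 123396795 to 123403760, plus strand) differed in the other direction. It had 14.5, 11.8 and 10.2 CPM in anle138b tumors, against 15.4, 19.3 and 18.9 CPM in untreated tumors. Again the groups did not overlap, though the nearest tumors, anle138b replicate 1 and untreated replicate 1, were less than 1 CPM apart. The log2 fold change was -0.57 ± 0.16 (95% interval -0.94 to -0.20; adjusted p = 0.212 by edgeR), the largest in size of the 10 genes. It was -0.39 and -0.38 without anle138b or untreated replicate 3 and -0.71 without anle138b replicate 1. With naming set in the fit, leaving out either replicate 3 nearly repeats the comparison in the 4-library set alone, which gave -0.39.

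SPRY4 (chromosome 5, 142310427 to 142326455, minus strand) had 69.4, 76.7 and 113 CPM in anle138b tumors, against 83.1, 90.0 and 126 CPM in untreated tumors. The naming sets were further apart than the groups, and within each set every anle138b tumor was the lower. The log2 fold change of -0.22 ± 0.09 had a 95% interval that ended at -0.0041 (adjusted p = 0.572). SPRY4, SPRY1 and SPRY2 thus gave a summed level that overlapped between groups, 151 to 197 CPM in anle138b tumors and 149 to 196 CPM in untreated tumors.

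SPRED1 (chromosome 15, 38252326 to 38357249, plus strand), the partner of neurofibromin, had 222, 224 and 359 CPM in anle138b tumors, against 176, 179.6 and 253 CPM in untreated tumors. Both anle138b tumors of the 4-library set were above its untreated tumors, and the same held in the 2-library set, while untreated replicate 3 exceeded anle138b replicates 1 and 2. The log2 fold change was 0.39 ± 0.09 (95% interval 0.18 to 0.59), with adjusted p = 0.114 by edgeR and adjusted p = 0.0199 by DESeq2.

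SPRED2 (chromosome 2, 65310851 to 65432637, minus strand), its paralogue, had 75.1, 73.7 and 64.0 CPM in anle138b tumors, against 68.2, 82.4 and 67.5 CPM in untreated tumors. The groups overlapped, and the log2 fold change was -0.04 ± 0.10 (95% interval -0.27 to 0.19; adjusted p = 0.979).

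Neither ETS factor gene differed beyond the spread between tumors. ETV4 (chromosome 17, 43527844 to 43579620, minus strand) had 75.2, 61.6 and 56.8 CPM in anle138b tumors, against 51.2, 71.6 and 49.0 CPM in untreated tumors, a log2 fold change of 0.18 ± 0.14 (95% interval -0.13 to 0.49; adjusted p = 0.873). ETV5 (chromosome 3, 186046308 to 186110318, minus strand) had 208, 200.4 and 259.7 CPM in anle138b tumors, against 189, 244 and 285 CPM in untreated tumors, a log2 fold change of -0.10 ± 0.11 (95% interval -0.35 to 0.15; adjusted p = 0.936). Both genes overlapped between groups. ETV4 stood at 0.09 without anle138b replicate 1, 0.08 without untreated replicate 1 and 0.33 without untreated replicate 2. ETV5 stood at -0.17 without untreated replicate 1 and 0.0047 without untreated replicate 2. Their intervals leave room for differences of up to 0.49 upward for ETV4 and 0.35 downward for ETV5 on the log2 scale. Exons of ETV4 share 1.89% of their bases with DHX8 on the opposite strand, and those of ETV5 share 2.83% with DGKG on the same strand.

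**Figure D2:**
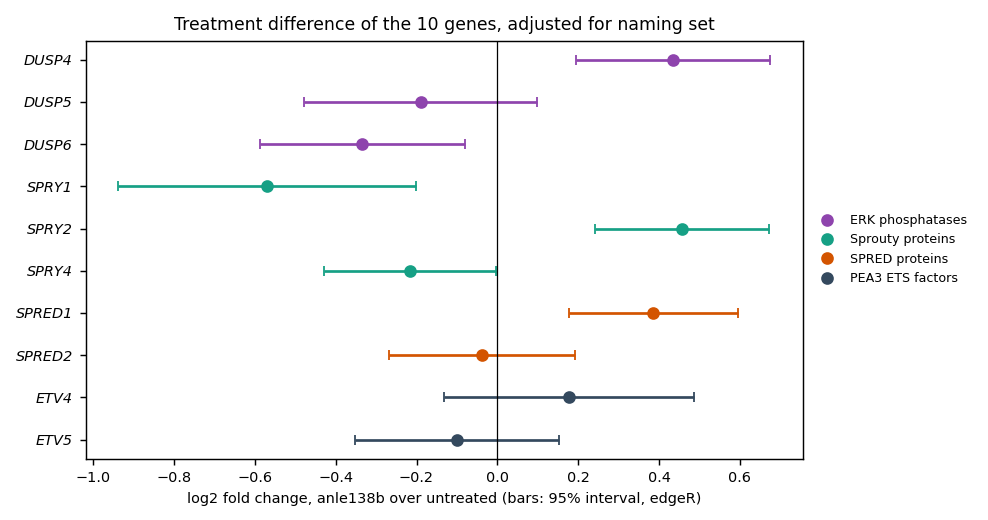
Log2 fold change of each gene, anle138b over untreated with naming set in the fit, with bars for the 95% interval before adjustment over genes; colours mark the families. The intervals of SPRY2, DUSP4 and SPRED1 lie above 0, those of SPRY1, DUSP6 and SPRY4 below 0, and those of DUSP5, SPRED2, ETV4 and ETV5 include 0; none passed after adjustment over 20423 genes.

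Every one of the 10 genes had the same sign of difference in both naming sets. In the 4-library set the mean log2 CPM of anle138b tumors exceeded that of untreated tumors by 0.41 for DUSP4, 0.41 for SPRY2 and 0.33 for SPRED1. In the 2-library set, where each group is 1 library with no test, the differences were 0.50, 0.55 and 0.50. The lower genes differed by -0.28 and -0.42 for DUSP6, by -0.39 and -0.88 for SPRY1 and by -0.24 and -0.16 for SPRY4 in the 4-library and the 2-library set. Within both sets, 6 of the 10 genes had every anle138b tumor on 1 side of every untreated tumor, against 19.9% of all genes. Of the 6, 3 were higher and 3 lower, against 9.52% and 10.4% of all genes. Over all 6 tumors it was 3 of 10, against 8.5%, with 2 higher and 1 lower, against 4.03% and 4.47%. The test of a difference in response between sets called 0 of the 10 and 0 of 20423 genes by edgeR (0%), with 6.59% of all genes and 0 of the 10 at an unadjusted p under 0.05. It called 0 of the 10 by DESeq2 and by limma. The smallest of these p-values among the 10 was 0.14, for SPRY1.

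**Figure D3:**
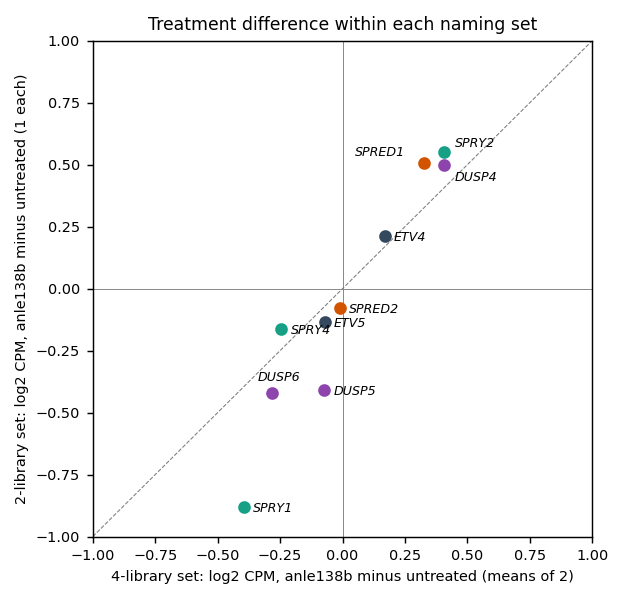
Difference in log2 CPM, anle138b minus untreated, in the 4-library set (horizontal axis, means of 2 tumors per group) and in the 2-library set (vertical axis, 1 tumor per group) for each of the 10 genes; the dashed line marks equal differences. All 10 points lie in the upper right or lower left of the plot, with SPRY1 farthest below the line at -0.39 and -0.88.

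The sets themselves differed in the level of these genes. On the log2 CPM scale the 2-library set exceeded the 4-library set by 0.60 for SPRED1, 0.59 for SPRY4, 0.38 for ETV5, 0.32 for DUSP4 and 0.26 for DUSP6. It was below it by a difference of -0.59 for DUSP5, -0.28 for ETV4, -0.18 for SPRED2 and -0.11 for SPRY1, and it differed by 0.01 for SPRY2. In 6 of the 10 genes the difference between sets was larger in size than the treatment difference. Without the set term, edgeR called 0 of the 10 genes, against 0.0441% of all genes. At an unadjusted p under 0.05 there were 3 of the 10, against 800 of 20423 genes.

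Set against gene length, the order of the 10 genes was led by DUSP4. Its level per kilobase of annotated exon, scaled to the same total in every library, was 236 ± 58.6 in anle138b tumors and 168 ± 43.4 in untreated tumors (SD, n = 3). ETV5 followed with 123 ± 29.6 and 128 ± 41.0, DUSP6 with 100.4 ± 17.0 and 124 ± 35.3, and SPRED1 with 105 ± 41.0 and 76.9 ± 27.9. These 3 per-length levels did not differ beyond their spread. AC024909.2 covers 40.5% of the exon bases of DUSP6, and how reads there were assigned is not given. The per-length level of DUSP6 and its place in the order, also relative to DUSP4, are therefore uncertain. SPRY2 stood at 74.6 ± 11.9 in anle138b tumors and 52.2 ± 5.97 in untreated tumors, ETV4 at 56.2 ± 1.44 and 47.9 ± 5.16, SPRY4 at 42.5 ± 15.8 and 47.6 ± 18.1, and SPRED2 at 43.5 ± 3.21 and 42.9 ± 3.50. In untreated tumors the per-length levels of SPRY2, ETV4 and SPRY4 overlapped in their spread. DUSP5 (20.8 ± 4.69 and 22.5 ± 0.842) and SPRY1 (9.63 ± 0.585 and 13.9 ± 2.78) were the lowest in both groups.

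A ratio of 2 genes in the same tumor does not depend on how libraries are scaled. Ratios were formed for all 8 pairs within the families after the values were seen, so they are a description with no test. DUSP4 had 2.14, 2.33 and 2.52 times the per-length level of DUSP6 in anle138b tumors, against 1.42, 1.35 and 1.33 times in untreated tumors. The size of ratios to DUSP6 depends on how reads shared with AC024909.2 were assigned, which is not given. SPRY2 had 2.10, 2.03 and 1.41 times the level of SPRY4 in anle138b tumors, against 1.31, 1.31 and 0.862 times in untreated tumors. SPRY1 had 0.165, 0.126 and 0.106 times the level of SPRY2 in anle138b tumors, against 0.234, 0.271 and 0.288 times in untreated tumors. In these 3 pairs the groups did not overlap, and the log2 ratios differed by 0.77, 0.67 and -1.02 on average. Each of these pairs sets a gene with a higher level against one with a lower level, so the ratios restate the differences given above. How often other pairs of genes do not overlap was not measured. The ratio of DUSP4 to DUSP6 was nearly the same in the 3 untreated tumors, whichever the naming set. In the other 5 pairs the groups overlapped, with mean log2 differences of 0.62 for DUSP4 to DUSP5, 0.14 for DUSP5 to DUSP6, -0.34 for SPRY1 to SPRY4, 0.42 for SPRED1 to SPRED2 and 0.28 for ETV4 to ETV5. Each of these 5 moved widely when 1 library was left out, and they ran from 0.25 to 0.86 for DUSP4 to DUSP5, from -0.11 to 0.46 for DUSP5 to DUSP6, from -0.62 to -0.01 for SPRY1 to SPRY4, from 0.12 to 0.64 for SPRED1 to SPRED2 and from 0.04 to 0.48 for ETV4 to ETV5. The lowest value in size came without anle138b replicate 3 for DUSP4 to DUSP5, SPRY1 to SPRY4 and SPRED1 to SPRED2, and without untreated replicate 3 for ETV4 to ETV5. The 3 pairs whose groups did not overlap ran from 0.71 to 0.83 for DUSP4 to DUSP6, from 0.47 to 0.86 for SPRY2 to SPRY4 and from -1.19 to -0.87 for SPRY1 to SPRY2. All these ranges are of plain group means with no set term, so leaving out 1 library also changes the balance of naming sets between groups. Within both naming sets, with 1 tumor per group in the 2-library set, each of the 5 overlapping pairs kept its sign. The 4-library and 2-library log2 differences were 0.48 and 0.91 for DUSP4 to DUSP5, and 0.21 and 0.0098 for DUSP5 to DUSP6. SPRY1 to SPRY4 differed by -0.15 and -0.73, SPRED1 to SPRED2 by 0.34 and 0.58, and ETV4 to ETV5 by 0.24 and 0.35. In all but SPRY1 to SPRY4, every anle138b tumor was above every untreated one within each set, for DUSP5 to DUSP6 only barely.

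**Figure D4:**
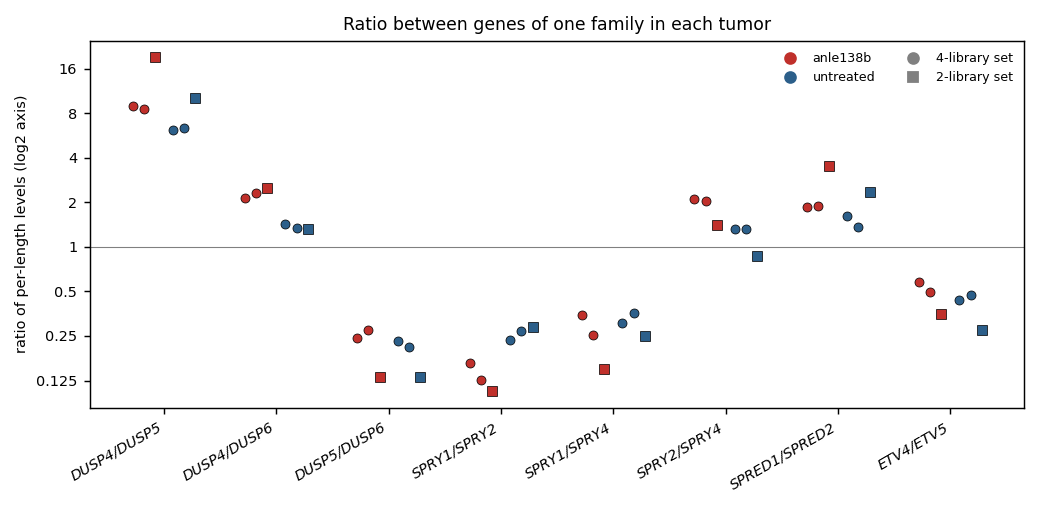
Ratio of per-length levels for the 8 pairs of genes within a family in each tumor, on a log2 axis, with anle138b tumors (red) left of untreated tumors (blue); circles are the 4-library set and squares the 2-library set. DUSP4/DUSP6 lies between 2.14 and 2.52 in anle138b tumors, against 1.33 to 1.42 in untreated tumors, and SPRY1/SPRY2 between 0.106 and 0.165, against 0.234 to 0.288.

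Other genes of the pathway were read from lists drawn up by function. Counts of called genes in these lists stand against 1.05% of all genes tested. Among 5 measured of 7 other MAP kinase phosphatases, 0 were called and the median log2 fold change was -0.04. DUSP10, a phosphatase that prefers p38 and JNK, had 70.3, 62.8 and 50.3 CPM in anle138b tumors, against 47.0, 49.2 and 38.1 CPM in untreated tumors (0.45 ± 0.10, adjusted p = 0.0731). DUSP7, a cytoplasmic ERK phosphatase like DUSP6, had a change of -0.16 ± 0.15 (adjusted p = 0.902). Of 12 further brakes on receptors, Ras and RAF, 0 were called and the median was 0.02, with IL17RD, a membrane antagonist of FGF signalling, at -0.26 ± 0.10 (adjusted p = 0.399) and PEBP1 at -0.26 ± 0.12 (adjusted p = 0.62).

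In the cascade itself, from GRB2 and Ras to ERK, 0 of 18 genes were called, against 1.05% of all genes. Their median log2 fold change was 0.07, with values from -0.03 to 0.26, and 16 of the 18 were above 0, against 47.9% of all genes. Only 1 of the 18 had an unadjusted p under 0.05 by edgeR, against 8.49% of all genes.

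Among ETS and Capicua regulators, 1 of 10 genes was called, against 1.05% of all genes. ETS2, an ETS factor that ERK phosphorylates, rose: it had 41.9, 41.1 and 50.8 CPM in anle138b tumors, against 27.2, 26.1 and 26.7 CPM in untreated tumors. Every anle138b tumor was well above every untreated tumor, and the log2 fold change was 0.74 ± 0.11 (adjusted p = 0.012 by edgeR). That call was lost without the set term (adjusted p = 0.162), with the 4-library set only (adjusted p = 0.0682), and on leaving out anle138b replicate 1 or 3 (adjusted p = 0.0665 and 0.0875). Leaving out anle138b replicate 3 nearly repeats the 4-library comparison and is not a separate check. ELK4 had a change of 0.16 ± 0.09 (adjusted p = 0.773), CIC, the gene of Capicua, one of -0.11 and ETV1, the third member of the PEA3 group, one of -0.02.

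Of 22 other ERK output genes 21 were measured, and 1 of them was called, against 1.05% of all genes. SLCO4A1, a transporter gene used in signatures of MEK activity, rose to 66.3, 53.7 and 62.0 CPM in anle138b tumors, against 40.2, 40.1 and 31.2 CPM in untreated tumors (0.72 ± 0.13, adjusted p = 0.0295 by edgeR). Its call was lost without the set term (adjusted p = 0.317), with the 4-library set only (adjusted p = 0.133), and on leaving out each library in turn except anle138b replicate 2 (adjusted p from 0.0658 to 0.186). Leaving out replicate 3 of either group nearly repeats the 4-library comparison and is not a separate check. LGALS3, the gene of galectin-3, had 717, 613 and 748 CPM in anle138b tumors, against 384, 485 and 522 CPM in untreated tumors (0.58 ± 0.12, adjusted p = 0.0699). The other 3 genes at an unadjusted p under 0.05, named after their values were seen, were IER3 at 0.86, EGR1 at -0.68 and PHLDA1 at 0.24 (adjusted p from 0.192 to 0.521). EGR1 had 27.5, 19.6 and 26.3 CPM in anle138b tumors, against 24.2, 52.4 and 41.4 CPM in untreated tumors. Its groups overlapped, as untreated replicate 1 was below anle138b replicates 1 and 3. IER3 had 33.2, 27.3 and 56.6 CPM in anle138b tumors, against 21.7, 24.2 and 17.2 CPM in untreated tumors. Its difference was 0.39 in the 4-library set and 1.71 in the 2-library set, and the test of that gap between sets gave an adjusted p of 0.357 by edgeR. The list's median was 0.04, with 11 genes above 0 and 10 below, and CCND1 and MYC had changes of 0.09 and -0.12.

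**Figure D5:**
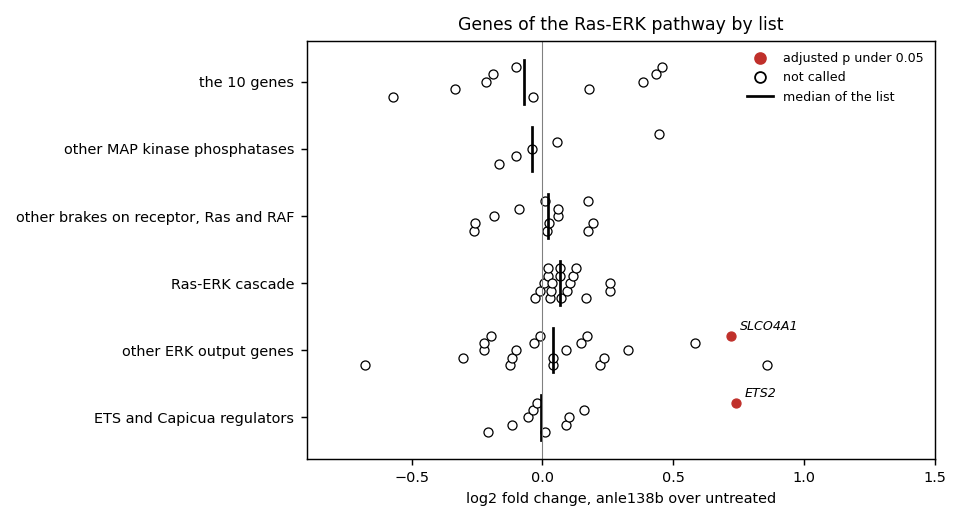
Log2 fold change, anle138b over untreated, of each measured gene in the 10-gene group and in 5 further lists of the pathway; each circle is a gene, vertical bars are list medians, vertical offsets within a list only separate the circles, and filled circles passed at an adjusted p under 0.05. SLCO4A1 (0.72) and ETS2 (0.74) are the 2 filled circles; the 10 genes spread from -0.57 to 0.46 about a median of -0.07.

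Markers of other cells were read beside these values, since several of the 10 genes are also active in vessels and stroma. The tumors are xenografts, whose vessels, stroma and immune cells come from the host, while the counts are of human genes. Such counts can stem from the melanoma cells or from host reads counted for human genes, which cannot be told apart. They are therefore no measure of how many of these cells a tumor held. In bulk tumors, fewer cells of a type and less RNA per cell cannot be told apart. The 7 endothelial markers summed to 31.2 to 31.3 CPM in anle138b tumors and 35.4 to 41.5 CPM in untreated tumors, a sum made up mostly of TIE1, and they did not share 1 direction. Of these, 5 passed the filter and 0 were called, against 1.05% of all genes. TIE1 had a log2 fold change of -0.52 (adjusted p = 0.0692) and VWF one of -0.60, while KDR, the main VEGF receptor gene, had one of 0.66 (adjusted p = 0.368), CDH5 one of 0.16 and TEK one of -0.16. KDR had 2.68, 4.07 and 14.0 CPM in anle138b tumors, against 2.31, 1.48 and 9.88 CPM in untreated tumors, higher within both naming sets. PECAM1 stayed at 0.306 to 0.637 CPM in anle138b tumors and 0.519 to 0.679 CPM in untreated tumors. The 8 fibroblast and pericyte markers summed to 439.7 to 826 CPM in anle138b tumors and 415 to 564 CPM in untreated tumors, and 1 of them, LUM, was called (0.70, adjusted p = 0.0249). These markers did not share 1 direction either, with 4 above 0, 4 below and a median log2 fold change of 0.04. Myeloid markers summed to 13.5 to 18.9 CPM in anle138b tumors and 13.2 to 18.8 CPM in untreated tumors, and skeletal muscle markers to 25.7 to 104 and 28.5 to 71.9 CPM. Lymphocyte markers summed to at most 0.672 CPM in anle138b tumors and 1.65 CPM in untreated tumors, with CD3D at 0 counts in every library, and keratinocyte markers to 16.7 to 21.9 and 18.6 to 23.5 CPM. The part of these cells in the differences of the 10 genes was not tested.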

How the data were processed

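The labels' protocols name TRIzol and the TruSeq RNA Library Prep Kit v2, a chemistry in which strand is not kept. For each tumor the authors deposited a table of raw read counts by Ensembl gene. The submitters' processing notes list STAR 2.5.2a, featureCounts 1.5.0-p1, bcl2fastq 2.17.1.14 and build hg38. The annotation, the strand and multiple-mapping settings and the handling of host reads are not given in the sources used here, so host reads counted for human genes cannot be told apart.

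Groups came from the treatment label, and replicate numbers, given in listing order, pair no tumors. Replicate pairs differed beyond sampling noise (chi-square per degree of freedom 8.97 to 49.6), so each library counted once. Counts were analysed with edgeR 4.0.16 (R 4.3.3): filterByExpr (minimum count 10, total 15), TMM scaling and the quasi-likelihood F test with treatment and naming set, 3 residual degrees of freedom, adjusted over 20423 genes. SE were derived from the F statistic, and 2 was the prior count for log2 CPM. Positions and exon lengths were from GENCODE 29. The fit was tested on simulated data. All 125 list entries were matched, older symbols through RefSeq synonyms. DESeq2 1.42.0, limma 3.58.1 voom, other scalings and filters, the 4-library set alone and leaving out each library were alternatives. The 10 genes and the lists were chosen with earlier results of these data known. Named from each other pathway list were the called genes and the 2 with the smallest p, except that single genes of the Ras-ERK cascade are not reported here; other names, markers included, were chosen after their values were seen.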

Additional observations from a re-analysis of the deposited data

How the results depend on the processing

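The number of genes called over the whole table was 215 in all 6 tumors with the set term. It was 9 without the set term, 754 without the low-count filter, 412 by DESeq2, 92 in the 4-library set alone, and 89 to 392 when 1 library was left out. Of the 10 genes, 0 were called with the set term, and 1 (DUSP4) with library size alone, 3 by DESeq2 (DUSP4, SPRY2 and SPRED1) and 4 without the low-count filter (these 3 and SPRY1, which was lower); leaving out 1 library gave 0 to 0. The treatment difference between sets was called for 0 genes by edgeR and 31 by DESeq2, with none of the 10 among them. Over 15 alternatives, 8 of the 10 genes kept their direction in each. The alternatives are not independent, and leaving out replicate 3 of either group nearly repeats the 4-library set alone. When 1 library was left out, SPRED2 ran from -0.087 to 0.037 and ETV5 from -0.17 to 0.0047, both above 0 only when untreated replicate 2 was the one left out. The log2 difference of the DUSP5 to DUSP6 ratio, examined after seeing the data, ran from -0.11 (untreated replicate 3 left out) to 0.46. It was -0.06 when anle138b replicate 2 was left out. These are differences of plain group means with no set term, so leaving out 1 library changes the balance of naming sets between groups. The ratio was 0.132 and 0.131 in the 2-library tumors, against 0.212 to 0.272 in the 4-library set. Within the 4-library and the 2-library set the log2 difference was 0.21 and 0.0098, above 0 in both. The cause was not tested. LGALS3 was called under 7 alternatives and DUSP10 under 4. No paired analysis was possible because the labels give no replicate numbers that the groups share.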

Other observations

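The mean profile of the 10 genes was compared with every other gene over the 6 tumors, each gene centred within its naming set on log2 CPM. Among 15462 genes with an average log2 CPM of at least 1, those most like it were SMIM30, CHAF1B and RAB10, with Pearson's r from 0.996 to 0.997. With 6 libraries such values are common, and 361 genes had r above 0.9, so they describe these libraries only. The profile they follow had its lowest value in untreated replicate 1 (-0.13) and its highest in untreated replicate 2 (0.11), and did not separate the groups. This mean is taken over genes with opposed patterns, which cancel in part. Centred in the same way, SPRED1 had r of 0.99 with SPRY2 and -0.90 with SPRY1.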
